A study of Homo sapiens with 6 samples.

Results

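The enzymes that make serine, move its carbon through the folate cycle and make asparagine were followed in OV2008 cells given a miR-328-3p mimic. The 9 genes PHGDH, PSAT1, PSPH, SHMT1, SHMT2, MTHFD1, MTHFD2, MTHFD1L and ASNS were chosen by symbol, with earlier results of these data known. A gene was read from a probe set whose annotation gives exactly 1 symbol. That held for 8 of the 9 genes, each with 1 such probe set, and all 8 were among the 18836 genes tested. The probe set of MTHFD1L carries 2 symbols, so this gene has no value here.

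OV2008, an established human line, carries the label ovarian cancer, although other work has traced it to a cervical carcinoma. A mimic is a short duplex RNA made to act as a mature microRNA. Cells received the mimic in 1 group and a negative control microRNA in the other, and RNA was taken on day 3. Each group had 3 arrays of 100 ng total RNA. Untransfected cells are not analysed here, so an effect of the control microRNA cannot be told apart from one of the mimic. Nothing in the labels says that the arrays came from separate cultures, so p-values cover the spread among these arrays alone, which may be technical.

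Array values are on what is taken as a log2 scale, with array medians from 4.16 to 4.23. Of the line's labelled identity, the 4 epithelial markers had group means from 11.13 to 14.99, whereas 4 of the 5 Mullerian markers, PAX8 and WT1 among them, had control means from 3.18 to 4.33, near or below the array medians. The fifth, ESR1, stood at 7.36 and fell to 7.02 (limma adjusted p = 0.0132). Of the squamous keratins with a value, KRT5 stood at 17.03 and KRT14 at 5.14 in the control group, and neither passed. All 4 leukocyte and all 4 fibroblast markers with a value had group means no higher than 4.39 in either group, and none of those tested passed the test. Among epithelial markers 3 of 4 rose, beside 7.21% of all genes. CDH1 rose by 0.66, KRT18 by 0.32 and KRT8 by 0.23, while EPCAM at 0.07 did not pass (limma adjusted p = 0.442). The log2 values of all 4, summed per array, went from between 51.95 and 52.19 to between 53.17 and 53.51. Of 4 endothelial markers CDH5 fell from 5.48 to 4.80, while VWF at 3.64 did not pass and KDR at 3.23 and PECAM1 at 2.93 in the control group were too low to be tested. Their part in the results was not tested.

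Serine is made in the cytosol from a glycolytic intermediate by PHGDH, PSAT1 and PSPH in turn. SHMT enzymes then split serine into glycine and a carbon unit carried by folate, SHMT1 in the cytosol and SHMT2 in mitochondria. MTHFD1 interconverts the carried units in the cytosol, while MTHFD2 and MTHFD1L do so in mitochondria and release formate for purine and thymidylate synthesis. ASNS makes asparagine from aspartate and glutamine. Several of these genes are known targets of ATF4, a transcription factor made when amino acids run short or proteins misfold.

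Sequences are shown for the mimic and for promoters of a gene that rose and a gene that fell. All are from RefSeq tables of build GRCh38.p14. The first line is mature hsa-miR-328-3p, encoded at chr16:67202327-67202348 on the minus strand, with its seed of bases 2 to 8 in capitals. The next is the ASNS promoter at chr7:97872429-97872516, gene on the minus strand, with a match to TGATGNAA in capitals. The match starts 68 bases before 1 of 2 annotated transcription starts, and the window of the other start holds no TGATGNAA. This element, to which C/EBP and ATF factors can bind together, is known in ASNS as the amino acid response element. The last is the MTHFD1 promoter at chr14:64388298-64388352, gene on the plus strand, with the E-box CACGTG, a motif that MYC-type factors can bind, in capitals.
hsa-miR-328-3p: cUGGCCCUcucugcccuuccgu
ASNS promoter: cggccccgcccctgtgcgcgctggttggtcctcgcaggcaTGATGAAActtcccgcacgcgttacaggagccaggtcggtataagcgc
MTHFD1 promoter: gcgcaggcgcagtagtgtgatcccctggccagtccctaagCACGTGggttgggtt
Promoter entries existed for 7 of the 9 genes, in 11 windows of 250 bases before a start, searched on both strands. TGATGNAA was found for ASNS and MTHFD1L, as TGATGCAA in the latter, and it occurs in 3.14% of all 35116 windows. CACGTG was found for MTHFD1 and MTHFD1L and occurs in 6.34% of windows. TGACNNNGC, the core of the antioxidant response element, was found for none of these genes and occurs in 10.9% of windows. These letters are not in the windows of PHGDH, PSAT1, MTHFD2 or SHMT1, and a match describes letters, not binding.

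The question of the comparison was which transcripts differ after the mimic. PSAT1, MTHFD2, ASNS and PSPH rose, by between 1.40-fold and 2.14-fold. SHMT2, SHMT1 and MTHFD1 fell, by between 1.28-fold and 1.41-fold, and PHGDH did not pass. Over all genes tested, 7.21% rose and 10.8% fell at a limma adjusted p under 0.05, together 18.0%. Control and mimic arrays were fully separate for all 8 genes, as they were for 41.6% of all genes. Since the genes were chosen with results known, these counts are a description and not independent evidence. The median log2 fold change was 0.34 over the 8 genes and 0.01 over all genes. In bulk RNA, fewer cells with a transcript and less of it per cell cannot be told apart.

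**Figure D1:**
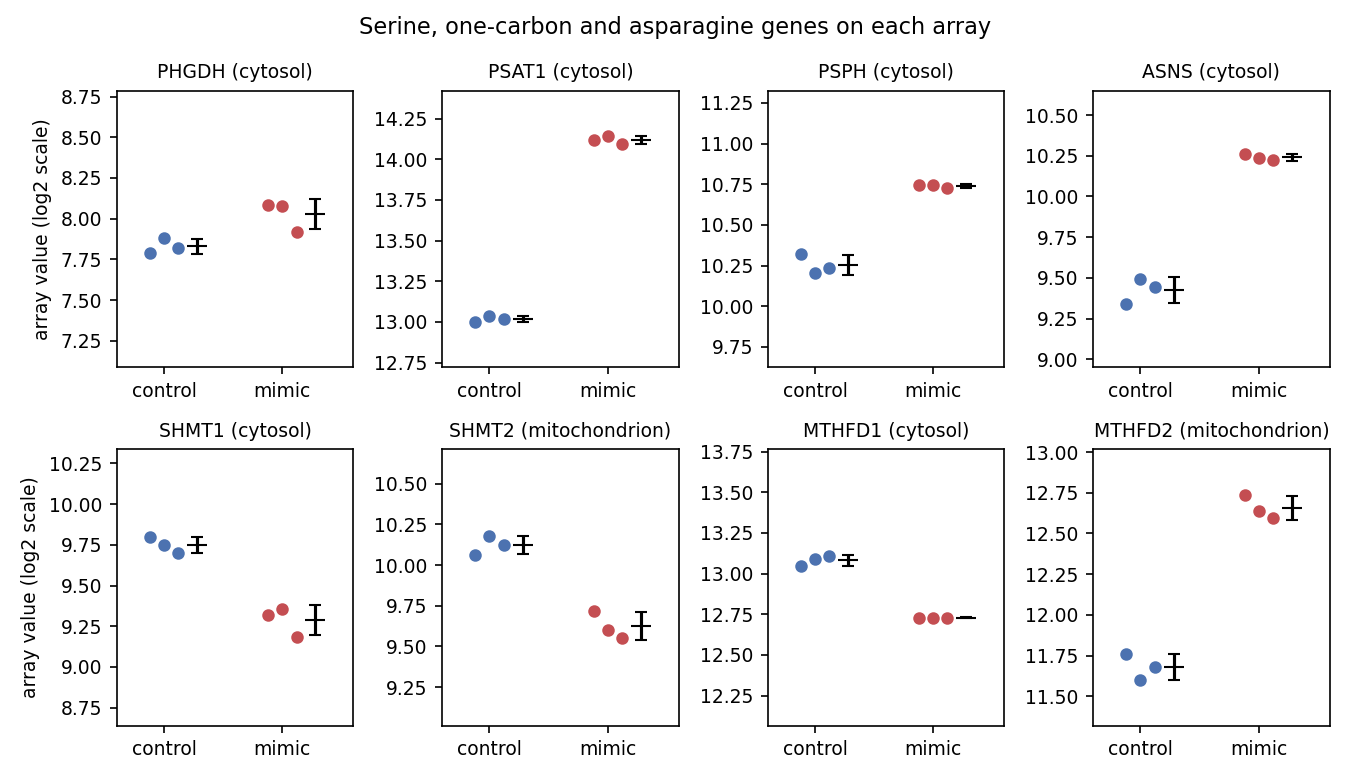
Array value on the log2 scale (y axis) of the 8 measured genes in the 3 control arrays (blue) and the 3 mimic arrays (red), with the group mean and SD as black bars. Every panel spans the same range. The groups are separate in all panels, most widely for PSAT1 and by only 0.0395 for PHGDH.

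Among the serine synthesis enzymes the change grew smaller from PSAT1 to PSPH to PHGDH. PSAT1 (probe set TC09000358.hg.1), the aminotransferase of the second step, read 13.00, 13.04 and 13.02 on the control arrays and 14.12, 14.14 and 14.09 on the mimic arrays. The arrays of each group lay close together and the lowest mimic array was 1.06 above the highest control array. The group means were 13.02 ± 0.0180 and 14.12 ± 0.0266 (SD, n = 3 each), a log2 fold change of 1.10 ± 0.0352 SE, or 2.14-fold, with a limma adjusted p of 6.05e-05. Of all genes tested, 46 had a rise at least as large, PSAT1 included.

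A pseudogene copy, PSAT1P4, has a probe set of its own and is the only named copy of these genes with a value. It went from 7.99 ± 0.145 to 9.01 ± 0.0581 (SD, n = 3), a log2 fold change of 1.02 ± 0.0814 SE with a limma adjusted p of 0.00077. Probes can be shared between a gene and its copy, so how much of each value comes from the other is uncertain.

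PSPH (TC07003357.hg.1), the phosphatase that releases serine in the last step, read 10.32, 10.20 and 10.23 in the control group and 10.75, 10.75 and 10.72 in the mimic group. The mimic arrays were nearly alike, and all lay at least 0.40 above the controls. The means of 10.25 ± 0.0598 and 10.74 ± 0.0124 (SD, n = 3) gave a log2 fold change of 0.49 ± 0.0450 SE, or 1.40-fold (limma adjusted p = 0.00133).

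PHGDH (TC01001043.hg.1), the dehydrogenase that commits the glycolytic intermediate to serine, read 7.79, 7.88 and 7.82 in the control group and 8.08, 8.08 and 7.92 in the mimic group. Mimic array 3 lay close above the controls while the other two mimic arrays stood clear of them. The log2 fold change was 0.20 ± 0.0639 SE, with a 95% interval from 0.05 to 0.35, and the limma adjusted p of 0.109 missed the threshold. The intervals of PSPH, 0.38 to 0.59, and of PSAT1, 1.02 to 1.18, lie above that of PHGDH. The differences between these genes were not tested.

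ASNS (TC07001630.hg.1), whose promoter carries the response element printed above, read 9.34, 9.50 and 9.44 in the control group and 10.26, 10.24 and 10.22 in the mimic group. All mimic arrays lay at least 0.73 above all control arrays. The means were 9.43 ± 0.0796 and 10.24 ± 0.0209 (SD, n = 3), a log2 fold change of 0.82 ± 0.0525 SE, or 1.76-fold (limma adjusted p = 0.000387).

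**Figure D2:**
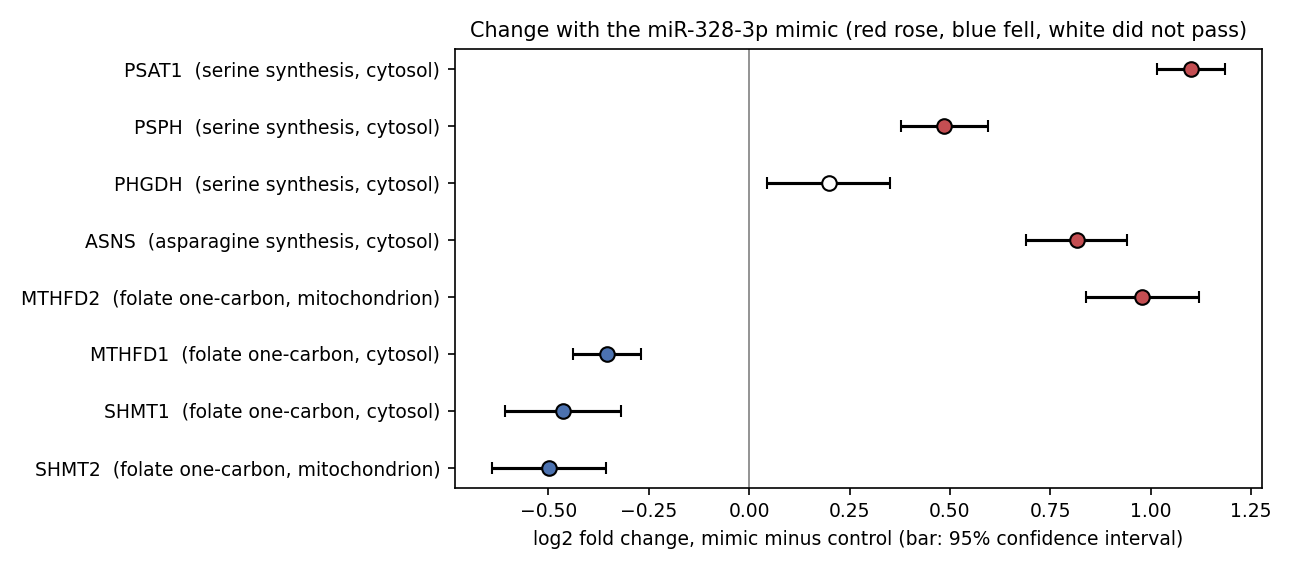
Log2 fold change of mimic over control (x axis) with its 95% confidence interval for the 8 measured genes, ordered by role. PSAT1 stands farthest to the right at 1.10, and MTHFD2 at 0.98 lies opposite the other folate enzymes, which lie between -0.50 and -0.35.

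The folate enzymes split. MTHFD2 (TC02000454.hg.1), the mitochondrial dehydrogenase and cyclohydrolase that is abundant in tumours and embryonic tissue, read 11.76, 11.60 and 11.68 in the control group and 12.74, 12.64 and 12.60 in the mimic group. The groups were 0.84 apart at their nearest arrays. The means of 11.68 ± 0.0783 and 12.66 ± 0.0723 (SD, n = 3) gave a log2 fold change of 0.98 ± 0.0585 SE, or 1.97-fold (limma adjusted p = 0.000291).

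SHMT2 (TC12000525.hg.1), which supplies the mitochondrial carbon unit ahead of MTHFD2, went the other way. It read 10.06, 10.18 and 10.12 in the control group and 9.72, 9.60 and 9.55 in the mimic group. Every mimic array lay at least 0.35 below every control array. The means of 10.12 ± 0.0566 and 9.62 ± 0.0862 (SD, n = 3) gave a log2 fold change of -0.50 ± 0.0594 SE, or 1.41-fold lower (limma adjusted p = 0.00324).

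SHMT1 (TC17001201.hg.1), the cytosolic form, read 9.80, 9.75 and 9.70 in the control group and 9.32, 9.36 and 9.18 in the mimic group. Mimic array 3 was the lowest, and no mimic array reached the controls. The means of 9.75 ± 0.0484 and 9.29 ± 0.0918 (SD, n = 3) gave a log2 fold change of -0.46 ± 0.0602 SE, or 1.38-fold lower (limma adjusted p = 0.00449).

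MTHFD1 (TC14000388.hg.1), the trifunctional cytosolic enzyme, read 13.05, 13.09 and 13.11 in the control group and 12.73 on each of the 3 mimic arrays. The mimic arrays were the tightest set of any of these genes, with an SD of 0.0024 against 0.0314 in the controls. The log2 fold change was -0.35 ± 0.0355 SE, or 1.28-fold lower (limma adjusted p = 0.00173).

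Cytosolic and mitochondrial partners were then compared within each array, as the log2 ratio of their probe sets. The size of such a ratio has no meaning across probe sets, but its difference between groups does. MTHFD2 over MTHFD1 was -1.29, -1.49 and -1.43 in the control arrays and 0.01, -0.09 and -0.13 in the mimic arrays. It rose by 1.33, or 2.52-fold, with the groups far apart (exact 90% interval 1.16 to 1.50). The exact two-sided permutation test over arrays gave p = 0.1, the smallest that 3 arrays against 3 allow, and 0.2 after adjustment over the 2 pairs compared.

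SHMT2 over SHMT1 was 0.27, 0.43 and 0.42 in the control arrays and 0.40, 0.24 and 0.37 in the mimic arrays, and the groups overlapped. The ratio differed by -0.036, with an exact 90% interval from -0.18 to 0.13 (exact two-sided permutation p = 0.5, adjusted p = 0.5). The sign of this difference turned without mimic array 2, to 0.011. The falls of SHMT1 and SHMT2 thus did not differ beyond the spread of the arrays. MTHFD1L, the mitochondrial counterpart of the synthetase part of MTHFD1, could not be paired.

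**Figure D3:**
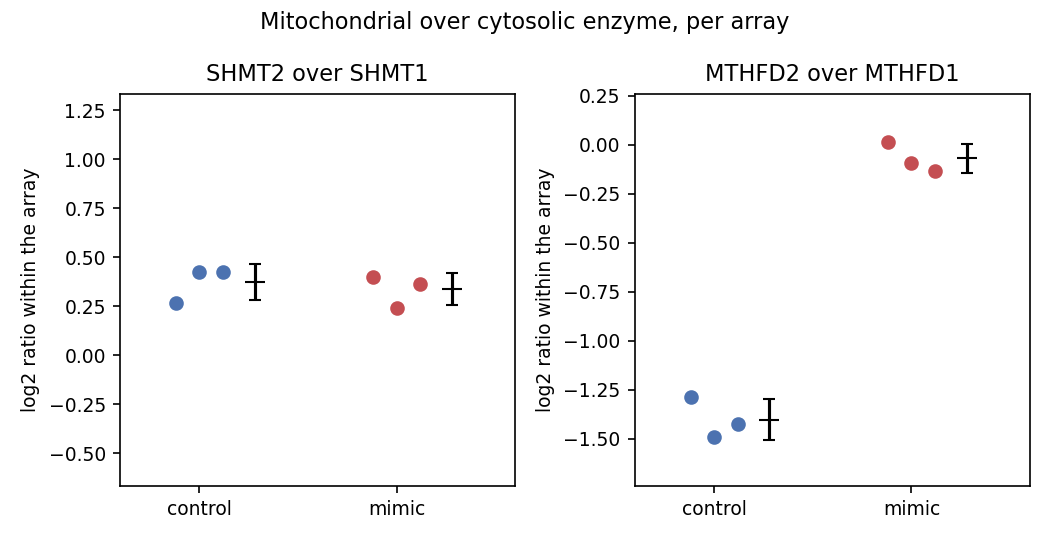
Log2 ratio of the mitochondrial over the cytosolic enzyme within each array (y axis) for SHMT2 over SHMT1 (left) and MTHFD2 over MTHFD1 (right), in control arrays (blue) and mimic arrays (red), with mean and SD as black bars. The left groups overlap, and on the right all mimic arrays lie above all control arrays, 1.33 apart on average.

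Other genes of the folate cycle followed in a list of 17. Of 15 tested, 1 rose, 3 fell and 11 did not pass, beside 7.21% rising and 10.8% falling over all genes, with a median log2 fold change of -0.03 against 0.01 over all genes. The 2 enzymes that spend folate carbon in purine synthesis fell, GART by 0.21 ± 0.0353 SE and ATIC by 0.25 ± 0.0503 SE (limma adjusted p = 0.0119 and 0.0231). GART lost its call without control array 3 or mimic array 2, at up to 0.057, and ATIC kept its call only without control array 1, with adjusted p from 0.0286 to 0.0924 over the arrays left out. MTHFS, which returns stored formylfolate to the cycle, passed at -0.33, and thymidylate synthase TYMS at 0.22. Neither call survived the loss of any array, with adjusted p from 0.0647 to 0.117 for MTHFS and from 0.0833 to 0.161 for TYMS. MTHFD2L, the near relative of MTHFD2, stood at 0.14 ± 0.0713 SE and did not pass (limma adjusted p = 0.316).

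Of 10 tested genes that break down or interconvert serine and glycine, in a list of 15, none rose and 1 fell. Over all genes 7.21% rose and 10.8% fell. The median of the list was -0.06. The gene that fell was DLD, a subunit shared by the glycine cleavage system and other mitochondrial dehydrogenase complexes, at -0.18 (limma adjusted p = 0.0259). Its call held only without control array 2, with adjusted p from 0.0484 to 0.108 over the arrays left out. By unadjusted p under 0.05, GCAT at -0.28 and GCSH at -0.19 were also lower, but neither passed (limma adjusted p = 0.116 and 0.0648). That cut was not read for every list, and the share of all genes under it was not taken.

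The methionine cycle and transsulfuration, which take up folate carbon and serine, showed no common direction. Of 12 tested in a list of 13, 2 rose, 2 fell and 8 did not pass, with a median of -0.0033. The shares over all genes were 7.21% rising and 10.8% falling. MAT2B, the regulatory subunit of S-adenosylmethionine synthetase, fell by 0.65 ± 0.0633 SE (limma adjusted p = 0.00154), and AHCYL1, a homologue of the S-adenosylhomocysteine hydrolase, by 0.29 ± 0.0455 SE (0.00893). The catalytic subunit MAT2A passed at 0.18 and lost its call without every array but mimic array 3, with adjusted p from 0.037 to 0.0982. CBS, which joins serine to homocysteine, passed at 0.30, but without any 1 array it no longer did, the adjusted p then running from 0.0669 to 0.12.

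Enzymes of aspartate, glutamine and proline metabolism are the neighbours of ASNS. Of 12 tested in a list of 16, none rose, 2 fell and 10 did not pass, with a median of 0.01. These counts are close to the shares over all genes, 7.21% rising and 10.8% falling. Glutamine synthetase GLUL fell by 0.60 ± 0.0473 SE and glutamate dehydrogenase GLUD1 by 0.38 ± 0.0372 SE (limma adjusted p = 0.000728 and 0.00154). At an unadjusted p under 0.05 none of these genes was higher, while ALDH18A1 at -0.22, PYCR1 at -0.18 and GOT1 at -0.14 were also lower. Their limma adjusted p of 0.0559, 0.125 and 0.0874 did not pass. The looser cut was not read for every list, and the share of all genes under it was not taken.

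Of 9 tested transporters of serine, glycine and asparagine, 4 rose and 1 fell, beside 7.21% rising and 10.8% falling over all genes. The median log2 fold change was 0.14. SLC1A5, the exchanger for glutamine, serine and asparagine, went from 8.22 to 9.23, a rise of 1.01 ± 0.0827 SE (limma adjusted p = 0.000848). The serine and alanine exchanger SLC1A4 rose by 0.44 ± 0.0659 SE (0.0079). SFXN1, which carries serine into mitochondria, rose by 0.44 ± 0.0525 SE (0.00333), and its family member SFXN2 fell from 8.05 to 7.11, by 0.93 ± 0.0837 SE (0.00118). SLC38A1, a sodium-coupled neutral amino acid transporter, passed at 0.20 and kept its call only without control array 1, with adjusted p from 0.0229 to 0.134.

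**Figure D4:**
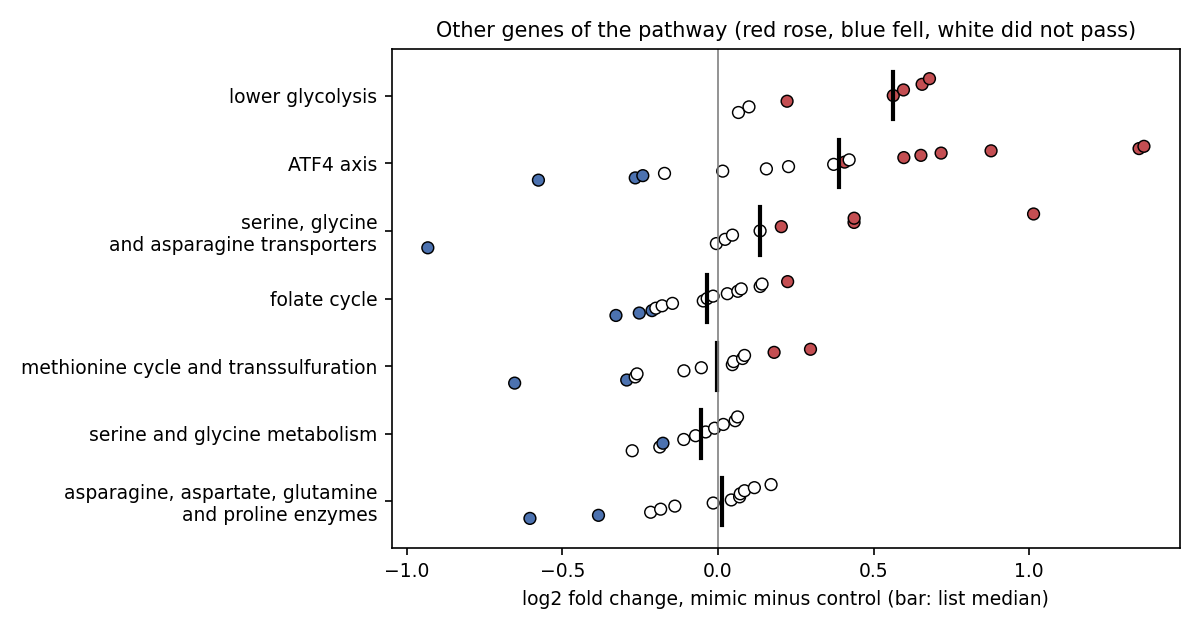
Log2 fold change of mimic over control (x axis) for the tested genes of 7 lists around serine, folate and asparagine synthesis, each point a gene and each black bar a list median. Medians lie at 0.56 for lower glycolysis, 0.39 for the ATF4 axis and 0.14 for transporters, and between -0.06 and 0.01 for the other lists.

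Genes of the ATF4 axis and of lower glycolysis were read from 2 further lists, some of whose members were already known to rise here. Of 16 tested genes of the ATF4 axis, in a list of 17, 7 rose, 3 fell and 6 did not pass, with a median of 0.39. Over all genes 7.21% rose and 10.8% fell. PPP1R15B, a phosphatase subunit that reverses eIF2 phosphorylation, rose by 1.37 ± 0.0592 SE, DDIT3 by 1.35 ± 0.0668 SE and DDIT4, an inhibitor of mTORC1 signalling, by 0.88 ± 0.0675 SE (limma adjusted p = 0.000111, 0.000163 and 0.000696). ATF4 itself went from 12.14 to 12.85. EIF2AK4, the GCN2 kinase that senses uncharged tRNA, fell from 10.20 to 9.62, by 0.58 ± 0.0404 SE (limma adjusted p = 0.000502). The kinases EIF2AK2 and EIF2AK1 passed at -0.27 and -0.24. The call of EIF2AK2 was lost without control array 3 or any 1 of the mimic arrays, at up to 0.0793, and that of EIF2AK1 without every array but control array 3, at up to 0.0816.

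Of 7 lower glycolysis genes, which lead into and past the branch to serine, 5 rose and 2 did not pass, with a median of 0.56. The shares over all genes were 7.21% rising and 10.8% falling. PGAM1 and PGK1, which stand on either side of the intermediate that PHGDH takes, rose by 0.68 ± 0.0510 SE and 0.66 ± 0.0435 SE (limma adjusted p = 0.000634 and 0.000404). ALDOA, with the lowest signal of this list, went from 5.40 to 5.99, by 0.60 ± 0.0778 SE (limma adjusted p = 0.00455). ENO1 passed at 0.22 and lost its call without control array 3, mimic array 1 or mimic array 2. Its limma adjusted p ran from 0.0314 to 0.0736 over the arrays left out. The 95% intervals of PGAM1, 0.56 to 0.80, and of PGK1, 0.55 to 0.76, lie above that of PHGDH, and the difference itself was not tested.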

How the data were processed

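The deposited table gives 1 value per probe set and array for 6 arrays, here taken as log2 values made by the authors. The base is inferred from the range, 1.62 to 19.9, and was not tested. The top of this range lies above 16, the log2 of a 16-bit maximum. MAS5 is the only tool named per the submitters' processing notes, with no version. How probes were summarized is not given in the sources used here, nor is a build. Groups follow titles and source names, although the mimic samples' description field mentions the control microRNA instead. Of 70523 probe sets, 2995 controls were left out, then the 25% with the lowest mean, leaving 50646. Symbols came from the platform annotation, and the brightest probe set of a gene stood for it. The comparison used limma 3.58.1 under R 4.3.3 (linear model, empirical Bayes with a mean-variance trend, two-sided, Benjamini-Hochberg over all 50646, threshold 0.05). The fit was tested on simulated data. Figures used matplotlib 3.10.9 under Python 3.11.15.

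The members and lists were chosen with earlier results of these data known. The text names all 9 members, any measured copy of them, and of each list up to 3 genes with the largest rise and 3 with the largest fall among those that passed. GCAT, GCSH, MTHFD2L, ALDH18A1, PYCR1, GOT1, SLC38A1, ATF4, ENO1 and the single markers were named after their values were seen. Some list genes lacked a probe set of 1 symbol or had low signal and are not analysed here. Alternatives were another filter, another scaling, no trend, a replicate block and leaving out each array. The number of arrays limits the precision.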

Additional observations from a re-analysis of the deposited data

How the results depend on the processing

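The 4 rises and 3 falls among the 8 measured genes held in all 12 alternatives, and PHGDH passed in none, with adjusted p from 0.0566 to 0.286. PSAT1 ranged from 1.06 to 1.11, MTHFD2 from 0.94 to 1.02, ASNS from 0.77 to 0.85, PSPH from 0.44 to 0.52, MTHFD1 from -0.39 to -0.34, SHMT1 from -0.50 to -0.41 and SHMT2 from -0.55 to -0.46. Each gene has 1 probe set, so no other could be tried, and the pair of MTHFD1L with MTHFD1 was not run. The rise of MTHFD2 over MTHFD1 ran from 1.29 to 1.39, and SHMT2 over SHMT1 from -0.088 to 0.011, turning sign without mimic array 2 (0.011). Over all genes, leaving out 1 array gave 831 to 1150 rising and 1271 to 1559 falling, the lowest without mimic array 2, and 1286 falling without control array 3. Median centring gave 1038 rising and 2374 falling against 1358 and 2034 as deposited, a rising share of 30.4%.

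Small list counts moved. In the folate list the 1 rise became 0 with no filter, median centring, quantile normalization, no trend and the replicate block. It was also 0 whichever array was left out. The 3 folate falls became 4 with the lower 50% left out and with median centring. They became 2 with quantile normalization and no trend, 0 with the block and 0 to 2 with an array left out. In the methionine list the 2 rises became 0 with median centring, quantile normalization and the block, 1 with no trend and 0 to 1 with an array left out, and the 2 falls became 4 with the lower 50% left out and with median centring and ranged from 2 to 3 with an array left out. The 1 fall in serine and glycine metabolism became 2 with the lower 50% left out and with median centring, 0 with no trend and the block, and 0 to 1 with an array left out. The 3 falls of the ATF4 axis became 4 with the lower 50% left out and with median centring. They became 1 with no trend and the block, and 1 to 2 with an array left out. The 5 rises of lower glycolysis became 4 with quantile normalization and no trend, and 4 to 5 with an array left out. TYMS, CBS, MAT2A and SLC38A1 also lost their call with median centring and with quantile normalization, at adjusted p from 0.052 to 0.305. The cause was not tested.

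The replicate block used numbers that the labels give both groups. Deviations of same-numbered arrays correlated at 0.14, -0.05 and 0.18, and those of differently numbered arrays at between -0.23 and 0.12. With 3 arrays per group these values cannot show whether the numbers pair the arrays. With the replicate block 1038 genes rose and 1507 fell in place of 1358 and 2034, and the calls of the members were the same.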
